A study of Mus musculus with 4 samples.

Results

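The regions described here are 294 places in the mouse genome where both wild-type forms of a TAF3 fusion left integration sites and neither mutant form did. They were chosen from 1734 foci of the wild-type PHD library. A focus is a run of at least 4 distinct integration positions of that library, with no gap between neighbours above 1000 bp and with 500 bp added on each side as its window. A focus entered the set when its window held at least 1 site of wild-type full-length TAF3 and none of either M880A library. The site counts of all 4 libraries inside the windows thus chose the set, and they are given as a description only.

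TAF3 is a subunit of TFIID, the general transcription factor that starts assembly of the preinitiation complex at promoters of RNA polymerase II. Its PHD finger, near the C-terminal end, binds histone H3 trimethylated on lysine 4, a mark that is dense around the starts of active genes. Methionine 880 lies in that finger, and M880A replaces it by alanine. In HIT-seq the protein of interest is fused to the integrase-binding domain (IBD) of LEDGF/p75, the cellular protein that guides HIV integrase to chromatin, so that vector integrations are steered to where the fusion is bound.

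All 4 libraries came from C57BL/6 mouse embryonic fibroblasts of the line E2, which carry no functional Psip1 (Psip1 -/-) and so make no LEDGF/p75 of their own. The cells received, by nucleofection, a plasmid for full-length TAF3 with M880A fused to the IBD (Full M880A), the PHD domain alone with M880A (PHD M880A), wild-type full-length TAF3 (Full WT) or the wild-type PHD domain alone (PHD WT). GFP-positive cells were sorted and then infected with 500 ng of a VSV-G pseudotyped luciferase vector based on HIV, and they were harvested 48 to 72 h later. A recovery of 24 to 36 h and polybrene at 8 µg per ml are also listed for all 4 libraries. No library without a fusion protein was analysed here, and the labels do not say how much of each fusion was made or whether endogenous TAF3 remained.

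With 1 library per fusion there are no replicates, and no p-value is given for any difference. The lists held 39292 distinct sites in Full M880A, 34888 in PHD M880A, 22486 in Full WT and 25363 in PHD WT. The median number of reads per site was 24, 23, 41 and 29 in that order. The read names place Full WT alone on 1 flow cell and the remaining 3 libraries together on another, so that for Full WT the flow cell and the construct cannot be told apart. Ranges in parentheses are 95% exact intervals (binomial for shares, Poisson for densities) and cover counting error only. Distinct positions were counted in place of reads, because the reads were amplified and no molecular identifiers were used here to separate copies. Coordinates are those of the deposited lists (mm9), 1-based. Gene annotation and genome sequence of that build were not used here, so no gene or base composition is assigned to a region.

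The selected foci made up 17.0% of the PHD WT foci, which is the share that the rule itself calls. The count depends on the length of the M880A lists: with both thinned to the length of the Full WT list, 488 foci (28.1%) would qualify. Of all 1734 foci, 81.4% held a Full WT site, 33.7% held no Full M880A site, 65.3% held no PHD M880A site, and 24.7% held neither. The absence of PHD M880A sites was therefore the common state among PHD WT foci, and the absence of Full M880A sites was the stricter criterion. The other foci fell into 589 with Full WT and Full M880A but no PHD M880A sites, 529 with Full WT and PHD M880A sites, 187 with an M880A site but no Full WT site, and 135 with PHD WT sites alone.

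The 294 foci were small. They contained 608 Full WT sites, 2.70% of that list, and 1664 PHD WT sites, 6.56% of that list. A focus held from 1 to 10 Full WT sites with a median of 2, and from 4 to 23 PHD WT sites with a median of 5. Most lay near the lower limit of the rule. The minimum of 4 PHD WT sites was met exactly by 111 foci, 128 foci rested on a single Full WT site, and 54 combined both. With an empty Full M880A window set at a floor of 3 sites, 1 Full WT site is 0.582 times that floor as a share of its list. For 2 Full WT sites it is 1.16 times and for 3 it is 1.75 times. By the same floor, 4 PHD WT sites are 1.83 times the PHD M880A floor share. The wild-type counts enter without their counting error. The absence of M880A sites in foci with so few wild-type sites cannot by itself show a loss. At the other end, 40 foci had 8 or more PHD WT sites, and 34 had 4 or more Full WT sites (11.6%, 8.14 to 15.8, against 27.3% of all PHD WT foci). The outermost PHD WT sites of a focus were a median of 908.5 bp apart (quartiles 615 and 1290 bp), compared with 1135 bp over all PHD WT foci. Since a wider window has more room for an M880A site, width is linked to the rule and is a description only.

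The share of foci that qualified did not fall from 4 to 5 PHD WT sites, and fell from there to 8 or more. It was 21.7% (18.2 to 25.5) of 512 foci with 4 sites, 23.8% (19.2 to 28.8) of 324 with 5, 17.1% (12.5 to 22.5) of 240 with 6, 13.4% (8.84 to 19.1) of 187 with 7, and 8.49% (6.14 to 11.4) of 471 with 8 or more. Over the same steps the share of foci with Full WT and PHD M880A sites was 18.6%, 20.7%, 26.7%, 33.7% and 51.0%. The richest PHD WT foci thus mostly held M880A sites as well, and the set described here was drawn mainly from the thinner ones. How much of this follows from the short windows and low counts of thin foci was not tested.

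**Figure D1:**
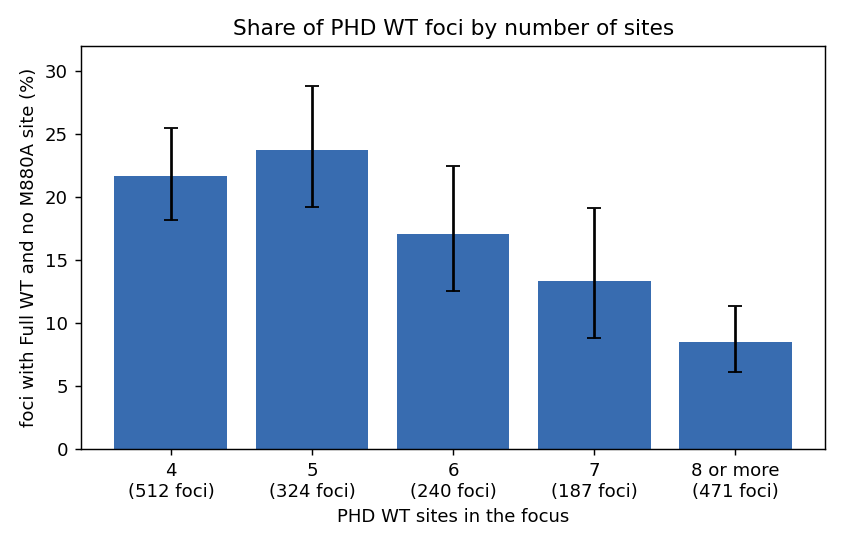
Share of PHD WT foci (vertical axis, percent) that held Full WT and no M880A sites, by number of PHD WT sites in the focus (horizontal axis, with the number of foci). Error bars are 95% exact binomial intervals. The share is 21.7% at 4 sites and 8.49% at 8 or more.

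Many foci lay at the edge of the rule. Just inside it, the 54 foci with 4 PHD WT sites and 1 Full WT site had a median width of 791.5 bp. Just outside it lay 341 foci that held Full WT sites and exactly 1 M880A site, which was a Full M880A site in 247 and a PHD M880A site in 94. Those 341 had a median width of 981 bp and a median of 5 PHD WT and 2 Full WT sites. A further 216 runs of 3 PHD WT sites, out of 841 such runs, met the other criteria and had a median width of 502 bp. A single M880A site thus kept a focus out of the set more often than the set has members.

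The focus with the most PHD WT sites, which also tied for the most Full WT sites, lay on chromosome 3, from 88334129 to 88340344. It held 0 Full M880A and 0 PHD M880A sites, against 10 Full WT and 23 PHD WT sites. With 3 sites as the floor of a library that has none, its Full WT share of sites was 5.82 times the Full M880A floor share. Its PHD WT share was 10.5 times the PHD M880A floor share. The floor bounds only the M880A counts, and the wild-type counts enter without their counting error. These counts also chose and ranked the focus, so the folds are a description only. The PHD WT sites spread over 5215 bp, the widest of all 294 foci, with 13 of 23 on the plus strand. The sites came from many positions with unequal reads: the PHD WT sites had 2030 reads in all and a median of 15, and the Full WT sites 639 reads and a median of 32.5. The nearest Full M880A site was 8133 bp from the outermost PHD WT site and the nearest PHD M880A site 9633 bp. Within 20 kb of the window there were 12 Full M880A, 2 PHD M880A, 17 Full WT and 29 PHD WT sites, window included. Another of the 294 foci, from 88357667 to 88359201, lies in this span and holds 3 of the Full WT and 5 of the PHD WT sites.

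**Figure D2:**
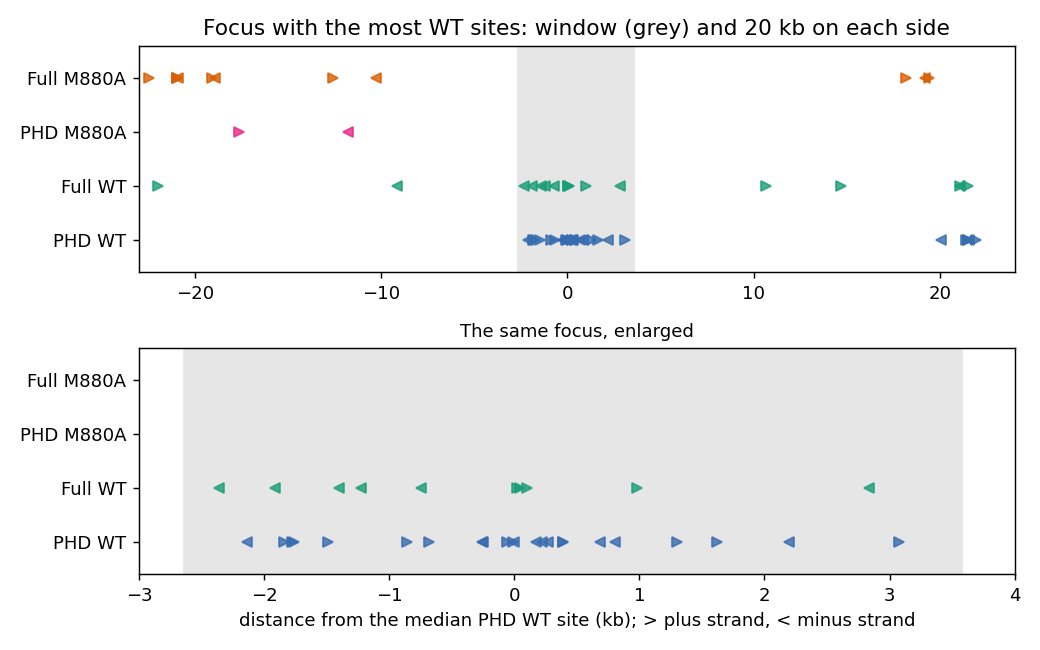
Integration sites of the 4 libraries (rows) around the chromosome 3 focus, by distance from its median PHD WT site (horizontal axis, kb). Arrowheads give the strand and the grey band is the window. The upper panel extends 20 kb beyond the window and the lower panel enlarges it. The band holds 10 Full WT and 23 PHD WT sites and no M880A site, while 12 Full M880A and 2 PHD M880A sites lie outside it. Another selected focus, with 3 Full WT and 5 PHD WT sites, lies in the right flank of the upper panel.

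Level with the chromosome 3 focus by Full WT sites was a narrow focus on chromosome 8, from 72875541 to 72877007. It had no M880A site, 10 Full WT sites and 5 PHD WT sites. Here the balance of the wild-type libraries was turned: its PHD WT sites spanned 466 bp, and Full WT sites lay from 700 bp left to 486 bp right of the median PHD WT site. A PHD M880A site lay only 742 bp beyond the outermost PHD WT site, just outside the window. On chromosome 17, positions 25408346 to 25410585 held 8 Full WT and 5 PHD WT sites, and the nearest Full M880A site was 2710 bp away. Only 8 of the 294 foci had more Full WT than PHD WT sites, and in 6 the counts were equal.

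The remaining foci among the 10 with the most Full WT sites had 5 or 6 of them. Also on chromosome 3, a focus from 88100887 to 88102922 contained 6 sites of Full WT and 8 of PHD WT. Its nearest M880A site, of Full M880A, was 26983 bp from the outermost PHD WT site. On chromosome 17, positions 24386877 to 24388714 held the same counts of 6 and 8, but a Full M880A site lay 767 bp away. These 2 foci cannot be told apart by the counts in their windows and differ in their surroundings. Another 3 foci also had 6 Full WT sites: chromosome 9 from 21351510 to 21353192 with 6 PHD WT sites, chromosome 15 from 99223272 to 99225374 with 5, and chromosome 7 from 148513200 to 148514923 with 4. With 5 Full WT sites 13 foci were tied, and the 2 of them with the most PHD WT sites completed the 10, on chromosome 1 from 51346052 to 51349419 with 17 PHD WT sites and on chromosome 14 from 73637879 to 73640648 with 10.

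Ranked by PHD WT sites, the chromosome 3 and chromosome 1 foci led again. By the same floor and with the same limits, the PHD WT share of the chromosome 1 focus was 7.79 times the PHD M880A floor share. Its Full WT share was 2.91 times the Full M880A floor share. All 5 of its Full WT sites lay between 526 and 1128 bp to the right of the median PHD WT site. Its nearest M880A site, of Full M880A, was 21877 bp away. Positions 20324058 to 20326490 on chromosome 9 held 3 Full WT and 15 PHD WT sites. Positions 31371859 to 31373980 on chromosome 7 held 3 and 14, as did a focus on chromosome 17 that comes later in chromosome order. The chromosome 6 focus, from 30250743 to 30254507, had 15 PHD WT sites with 1421 reads, but the 2 Full WT sites there had 5 reads together, so that its place among the shared foci rests on sites near the minimum of 2 reads for listing.

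The surroundings of the windows were not used by the rule and did contain M880A sites. In the first 500 bp beyond the windows, Full M880A had 42 sites and PHD M880A 23, against 50 in Full WT. Divided by the flank length and the list length, this was 36.4 (26.2 to 49.1) sites per Mb and per 10000 listed sites in Full M880A, 22.4 (14.2 to 33.6) in PHD M880A and 75.6 (56.1 to 99.7) in Full WT. PHD WT has no site there by construction, because such a site would have extended the focus. Between 500 and 1000 bp the densities were 33.8 (24.0 to 46.2) in Full M880A, 17.5 (10.4 to 27.7) in PHD M880A, 71.1 (52.2 to 94.5) in Full WT and 79.1 (60.2 to 102) in PHD WT.

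All 4 libraries were densest within 1000 bp of the windows, and the densities did not decline evenly. PHD WT was at 7.38 (5.08 to 10.4) between 2000 and 5000 bp and at 12.7 (10.3 to 15.6) between 5000 and 10000 bp. Between 10 and 50 kb they were 7.95 (7.39 to 8.55) in Full M880A, 7.52 (6.94 to 8.14) in PHD M880A, 11.6 (10.7 to 12.5) in Full WT and 12.6 (11.8 to 13.6) in PHD WT. The density in the first 1000 bp exceeded this distant level 4.41 times in Full M880A, 2.66 times in PHD M880A and 6.33 times in Full WT. In both M880A libraries the interval within 1000 bp, 27.8 to 43.6 and 14.3 to 27.1, lay wholly above that of the distant level. The same was seen in the other 4 classes of PHD WT focus, where the density within 1000 bp was 4.84 to 9.31 times the distant level in Full M880A and 2.26 to 4.13 times in PHD M880A. A higher density of M880A sites beside the window was thus shared by all classes and is not particular to the selected foci.

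**Figure D3:**
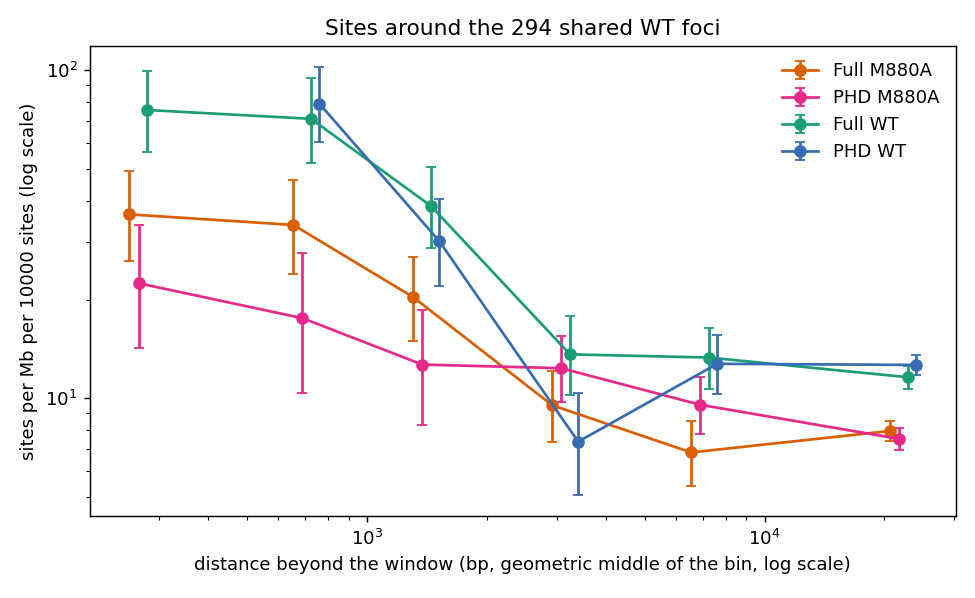
Sites per Mb and per 10000 listed sites (vertical axis, log scale) in bins of distance beyond the windows of the 294 foci (horizontal axis, bp, log scale), for each library, with 95% exact Poisson intervals. The first PHD WT bin is empty by the rule and is not drawn. Full M880A stands at 36.4 and PHD M880A at 22.4 beside the window, against 7.95 and 7.52 at 10 to 50 kb.

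Counted per focus, 94 of the 294 (32.0%, 26.7 to 37.6) had an M880A site of either form in the 1000 bp beyond the window, against 43.6% of all PHD WT foci. For Full M880A alone it was 70 foci (23.8%, 19.1 to 29.1), against 35.2% of all foci, and for PHD M880A 36 foci (12.2%, 8.73 to 16.5), against 16.1%. The wild-type library was also lower, with a Full WT site there in 74 foci (25.2%, 20.3 to 30.5), against 31.8% of all. Flanking sites of Full M880A and of Full WT were thus less frequent than around all PHD WT foci by more than the counting interval, while the interval for PHD M880A included the value for all foci.

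The other classes of focus divided into a lower and a higher group by the same measure. A Full M880A site lay within 1000 bp of 23.0% (16.2 to 31.0) of the foci with PHD WT sites alone, 26.2% (20.1 to 33.1) of those with an M880A but no Full WT site, 40.7% (36.7 to 44.8) of those with Full WT and Full M880A sites, and 41.8% (37.5 to 46.1) of those with Full WT and PHD M880A sites. The interval of the selected foci (19.1 to 29.1) overlapped the first pair and lay below the second. Among foci with exactly 4 PHD WT sites, shares were taken for an M880A site of either form within 1000 bp. The share was 36.9% (28.0 to 46.6) of the 111 selected foci. It was 46.8% (38.9 to 54.9) of the 158 with Full WT and Full M880A sites, and these intervals overlapped. It was 27.5%, 33.8% and 42.1% in the foci with PHD WT sites alone, with an M880A but no Full WT site, and with Full WT and PHD M880A sites. The Full M880A density within 1000 bp was 41.3 (28.9 to 57.1) around the 111 and 79.7 (64.8 to 97.1) around the 158, without overlap. For PHD M880A it was 27.1 (16.8 to 41.4) and 24.5 (16.1 to 35.6), which overlapped. No test of these differences was made, since each library is single.

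**Figure D4:**
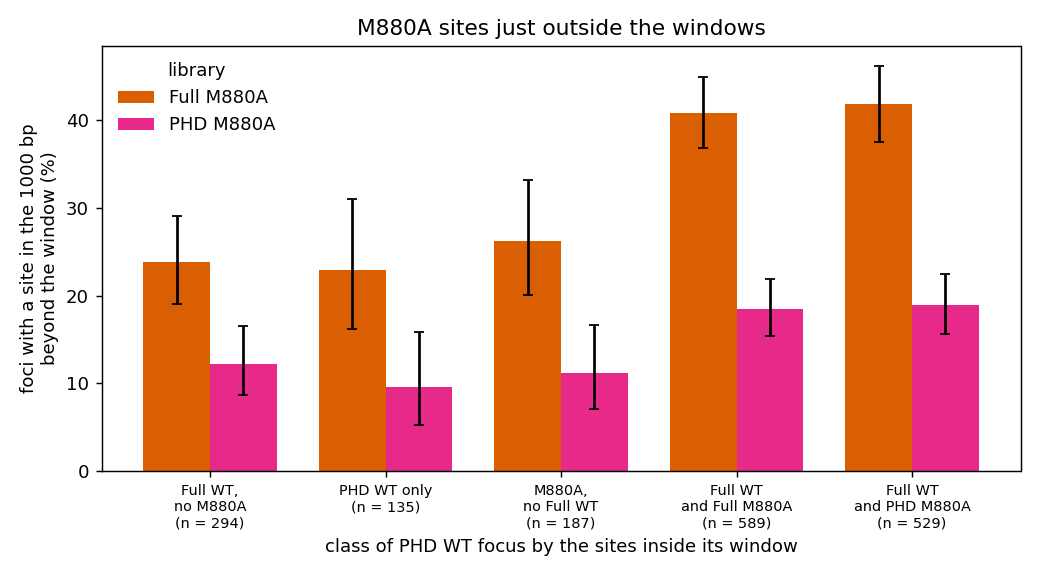
Share of foci (vertical axis, percent) with a Full M880A or PHD M880A site in the 1000 bp beyond the window, by class of PHD WT focus (horizontal axis, with the number of foci). Error bars are 95% exact binomial intervals. The 294 selected foci stand at 23.8% and 12.2%, and the foci with Full WT and Full M880A sites at 40.7% and 18.5%.

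Distance to the nearest M880A site varied widely among the 294 foci. Measured from the outermost PHD WT sites, the nearest Full M880A site was a median of 7846 bp away (quartiles 1602 and 26371 bp), and the nearest PHD M880A site 8485 bp (3263 and 21696 bp). For the nearer of the 2 the median was 2826.5 bp. It was within 2000 bp in 116 foci, beyond 10000 bp in 65 and beyond 50000 bp in 4. The 5 most isolated foci were on chromosome X from 106028516 to 106030713, with the nearest M880A site at 64622 bp, on chromosome 14 from 76814690 to 76816858 (63274 bp), on chromosome 5 from 128095801 to 128097482 (55028 bp), on chromosome 8 from 110111092 to 110113114 (50719 bp) and on chromosome 4 from 44024746 to 44026841 (41917 bp). They had 4 or 5 PHD WT sites and 1 or 3 Full WT sites each, so the foci farthest from M880A sites were not those richest in wild-type sites.

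Positions inside the foci are bounded by the rule, since only Full WT sites within 500 bp of the outermost PHD WT sites were counted, and they are given as a description. The 608 Full WT sites lay a median of 320.5 bp from the median PHD WT site of their focus (quartiles 129 and 594 bp), and the PHD WT sites, which define that centre, a median of 212 bp from it. Of the Full WT sites, 66.6% (62.7 to 70.4) fell between the outermost PHD WT sites and the rest in the added 500 bp. The share was 72.4% (70.3 to 74.3) in the foci with Full WT and Full M880A sites and 78.0% (76.1 to 79.7) in those with Full WT and PHD M880A sites, whose windows were wider.

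Neither strand was favoured beyond the counting interval. Of the Full WT sites 52.8% (48.7 to 56.8) and of the PHD WT sites 51.1% (48.6 to 53.5) were on the plus strand, and 280 of the 294 foci had PHD WT sites on both strands. Of the 166 foci with 2 or more Full WT sites, 108 had them on both strands and 100 on both sides of the centre. Reads per site were like those elsewhere, with medians of 45 in Full WT and 31 in PHD WT inside the foci, against 41 and 29 over the whole lists. A Full WT site with at least 10 reads was present in 258 of the 294. Of the 608 Full WT sites in the foci, 17 had the position and strand of a PHD WT site, and in 3 foci every Full WT site was of this kind. Such sites numbered 53 of 1966 in the foci with Full WT and Full M880A sites and 57 of 2088 in those with Full WT and PHD M880A sites. Within 5 bp of a PHD WT site lay 56 of the 608 (9.21%). Whether these numbers exceed those from site density alone was not tested.

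The 294 foci were spread over all 20 chromosomes sampled, from 4 of 37 PHD WT foci on chromosome 18 to 31 of 133 on chromosome 2. Per chromosome the share ranged from 10.8% (3.03 to 25.4) on chromosome 18 to 23.3% (16.4 to 31.4) on chromosome 2, and these intervals overlapped. Chromosome X contributed 12 of 59. Another PHD WT focus of any class lay within 50 kb of 60 of them (20.4%, 16.0 to 25.5), against 23.8% of all PHD WT foci, a value inside that interval. The share ranged over the other classes from 15.0% in the foci with an M880A but no Full WT site to 30.1% in those with Full WT and Full M880A sites. Another focus of the same set lay within 50 kb of 20 of them (6.80%). The share with a neighbour of the same class was 17.1% in the foci with Full WT and Full M880A sites. It was 7.94% in those with Full WT and PHD M880A sites, 4.44% with PHD WT sites alone, and 2.14% with an M880A but no Full WT site. The classes differ in size, which these shares do not take into account. The density of Full WT sites 10 to 50 kb away was 11.6 (10.7 to 12.5) around the selected foci, 11.4 around the foci with PHD WT sites alone, 9.36 around those with an M880A but no Full WT site, 14.6 around those with Full WT and PHD M880A sites, and 18.1 (17.3 to 19.0) around those with Full WT and Full M880A sites.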

How the data were processed

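Vector junctions were recovered by nested PCR from a ligated linker and read as pairs of 108 nt, per the labels' protocols. The authors deposited 1 BED list of integration sites per library. Per the submitters' processing notes, positions refer to mm9, and MACS 1.4.2 is named without a role. The sources used here name no aligner, filter or rule for joining reads into sites. The deposited score column is 0 throughout and was not used. The number after each read name, at least 2, was taken as reads per site, from its values only.

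The junction was the 5′ end of the listed strand. Lines of the same strand and junction were merged into 1 site, which took away 401 lines in Full M880A, 472 in PHD M880A, 354 in Full WT and 722 in PHD WT. Foci were built without thinning. Densities were divided by flank length and list length. A floor share sets a library without sites at 3 sites, and the wild-type count set against it is taken as observed. The regions, and the rule for those named (10 with the most Full WT sites, 5 with the most PHD WT sites, 5 farthest from an M880A site, with ties broken by sites of the other wild-type library, then by chromosome and start), were chosen with earlier results of these data known. Planned comparisons at gene starts, by sequence and by gene list were not run, since annotation and genome of mm9 were not used here. Python 3.11.15, numpy 2.4.6, pandas 2.3.3, scipy 1.17.1 and matplotlib 3.10.9 were used. The code was tested on simulated data with 200 planted foci of 5 classes, all recovered.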

Additional observations from a re-analysis of the deposited data

How the results depend on the processing

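The set depends on depth and on the limits of the rule. Of 47 recomputed values, 34 stayed within a limit around the reported value and 13 did not. The limit was the counting interval, except for the number of foci (within 1.5 times). For the median distance of Full WT sites from the centre it was the quartiles of the distances, a wide limit. Requiring 5 PHD WT sites left 183 foci, 15.0% of the foci then formed, with 6.67 PHD WT sites on average, against 294, 17.0% and 5.66 as reported. Without the added 500 bp the share was 21.4% with 1.80 Full WT sites per focus (2.07 as reported), and with 1000 bp added it was 14.5%. Among sites with at least 10 reads the share was 19.7% with 5.28 PHD WT sites per focus, and only 120 of the 294 foci overlapped a focus selected that way. With the M880A lists thinned to the length of the Full WT list, an alternative chosen after seeing the data, 488 foci qualified (28.1%, 2.32 Full WT sites per focus). The number of foci thus depends on the length of the M880A lists. The density of sites in the flanks to 5000 bp was 16.8 per Mb and 10000 listed sites in Full M880A and 13.9 in PHD M880A, and out to 10000 bp it was 11.8 and 11.7. Under the 9 planned changes to the rule, 65 of the 294 foci overlapped a selected focus every time, with a median of 7 PHD WT and 2 Full WT sites, among them the chromosome 3 focus with 23 PHD WT sites. The changes include the minimum of 5 PHD WT sites, so none of the 111 foci with exactly 4 could be among the 65. The count and the median of 7 depend in part on that setting. A focus with 0 M880A sites allows up to 3 sites, 0.00764% of the Full M880A list and 0.00860% of the PHD M880A list. No paired analysis was possible because each fusion had 1 library.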
